A study of Mus musculus with 4 samples.

Results

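The genes described here set the cultures treated with AR7 and CA77 apart from the untreated culture and the culture treated with CA39. The 3 compounds are activators of chaperone-mediated autophagy (CMA), in which the chaperone Hsc70 delivers single proteins to the receptor LAMP2A at the lysosome. CMA is under repression by the retinoic acid receptor RARα, against which the compounds were developed. RNA came from NIH-3T3 cells, an established line of mouse embryonic fibroblasts grown to confluency in serum, and each condition had 1 Agilent array. The 3 treated cultures received 20 µM of AR7, CA39 or CA77, dissolved in DMSO, and were collected after 24 h. No DMSO is named for the control, so where all treated arrays differ from it the vehicle and the compounds cannot be told apart. All cultures carry the cell type label WT.

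A gene was a member when both arrays of one side lay beyond both arrays of the other, and when it was well above background on both arrays of the higher side. The gap is the distance in log2 units between the nearest arrays of the 2 sides. AR7 and CA77 were put on one side, and untreated and CA39 on the other, after the distances among the arrays had been seen, and the members were selected on the same normalized levels that are given below. Each value is a description of 4 cultures, without replicate culture and without a test. Of 36838 gene names compared, 8457 were members, 4139 of them higher with AR7 and CA77 (19.2% of the 21561 that could be) and 4318 lower (20.2% of 21393). Most gaps were small. The median gap was 0.075 log2 units among the higher genes and 0.076 among the lower ones. Spots of one probe printed 10 times on an array gave a tolerance of 0.16 log2 units for the difference between 2 arrays, an error of the array and not of the culture. Gaps of at least this tolerance were left for 990 higher genes (4.59%) and 1083 lower genes (5.06%). A gap of at least 2-fold was seen for 34 higher genes (0.158%) and 12 lower genes (0.0561%).

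The members nearest to a gap of 0 show where the rule drew its line. Among the higher genes Kti12 had untreated 12.40, AR7 12.49, CA39 12.02 and CA77 12.40, a gap of 0.000128, and Bnip1 had a gap of 0.000236. The ribosomal protein gene Rpl13a and the ataxin gene Atxn1 stayed outside with a gap of 0. Among the lower genes Zfp87 (gap 8.6e-05) and Hectd2 (gap 0.000127) lay just inside, and the ribosomal protein genes Rpl8 and Rpl10a had a gap of 0.

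The arrays differed in ways that touch these genes. The share of probes detected, that is well above background, was 69.7% without treatment, 52.9% with AR7, 52.2% with CA39 and 61.6% with CA77. All arrays came from 1 slide, with the untreated culture in slide row 1 and the treated cultures in slide row 2. CA77 was read in scan 2 and the others in scan 1, so neither slide row nor scan can be told apart from the treatment. In grid rows 1 to 160 of each array 22.1% of genes were higher with AR7 and CA77 and 17.5% were lower, against 17.1% and 22.1% in the rows beyond. The scaling between arrays moved the balance of the directions. With quantile normalization 48.9% of members were the higher genes. When instead the 75th percentile of each array's detected probes was subtracted (percentile scaling below), the share was 11.1% (259 higher and 2082 lower). When the 75th percentile of all gene probes was subtracted (all-probe scaling), it was 59.6% (4314 and 2922). Percentile scaling moved the median side difference of all genes from -0.01 to -0.11, and the all-probe version moved it to 0.08. Among members past 2-fold the higher genes made up 73.9%, 31.6% and 80% under these scalings. The NIH-3T3 label was set against fibroblast genes. Of 12 fibroblast markers 10 were well above background on all arrays, Vim at 17.2 to 17.6 and Col1a2 at 17.9 to 18.6 among them, while Pdgfrb was well above background with CA39 alone. No member of the fibroblast list was higher with AR7 and CA77 and 6 of 10 were lower (Col1a1, Col1a2, Col3a1, Fn1, Pdgfra and Thy1), 60% against 20.2% of all genes. The summed linear level of the 12 markers was 985983 in the untreated culture, 837340 with AR7, 1269860 with CA39 and 877991 with CA77. Of the markers of other cell types, 0 of 4 epithelial, 0 of 4 leukocyte and 2 of 5 endothelial genes were higher (Cdh5 and Vwf, gaps 0.52 and 0.53). In the same lists 1 of 4, 1 of 3 and 1 of 5 were lower (Krt8, Csf1r and Pecam1). These shares were 0%, 0% and 40% higher, against 19.2% of all genes, and 25%, 33.3% and 20% lower, against 20.2%. Their summed levels lay at 935.2 to 2262, 7674 to 11163 and 4284 to 5072 over the arrays, and the epithelial genes Cdh1 and Krt19 were not well above background anywhere. The part of these markers in the results was not tested. Fewer cells of a type and less RNA per cell cannot be told apart in such bulk RNA.

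NRF2 (gene Nfe2l2) is a transcription factor that is held low by KEAP1 and turns on detoxifying enzymes when electrophiles or oxidants modify KEAP1. It binds the antioxidant response element together with small Maf proteins. Its textbook targets include glutathione transferases, which couple glutathione to electrophiles, the quinone reductase NQO1, and enzymes that make glutathione and NADPH. SREBP2 is the factor that turns on cholesterol synthesis when sterols in the endoplasmic reticulum run low, and it binds sterol regulatory elements. Fibroblasts are known for the collagens and other matrix proteins that they secrete.

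Gm10639, Gm3776 and Gsta2, neighbouring alpha-class glutathione transferase genes, had the widest gaps among genes with a symbol. The 250 bases before the RefSeq start of each gene (build GRCm38.p6) are printed because the copies are so alike. Gm10639 lies on the plus strand with chr9:78289678-78289927 as its window, Gm3776 on the plus strand with chr9:78256879-78257128, and Gsta2 on the minus strand with chr9:78347146-78347395. Capitals mark bases that differ from Gm10639 or have no partner there.
Gm10639: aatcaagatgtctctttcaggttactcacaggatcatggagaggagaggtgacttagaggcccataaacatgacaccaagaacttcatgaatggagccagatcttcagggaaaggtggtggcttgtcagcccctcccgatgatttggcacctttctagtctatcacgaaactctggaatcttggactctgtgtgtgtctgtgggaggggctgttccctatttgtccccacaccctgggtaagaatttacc
Gm3776: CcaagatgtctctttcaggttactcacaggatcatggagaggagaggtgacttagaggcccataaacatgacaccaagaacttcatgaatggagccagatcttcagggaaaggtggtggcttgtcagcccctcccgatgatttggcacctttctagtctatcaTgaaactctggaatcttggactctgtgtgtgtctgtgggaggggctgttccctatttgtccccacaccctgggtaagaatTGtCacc
Gsta2: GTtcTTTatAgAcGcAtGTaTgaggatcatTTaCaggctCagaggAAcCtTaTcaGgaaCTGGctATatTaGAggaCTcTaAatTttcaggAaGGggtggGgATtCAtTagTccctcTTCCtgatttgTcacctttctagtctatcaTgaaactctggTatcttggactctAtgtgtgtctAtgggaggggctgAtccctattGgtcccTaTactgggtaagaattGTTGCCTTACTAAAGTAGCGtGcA
In the Gm3776 window 245 of 250 bases were the same as in Gm10639 (98%), and in the Gsta2 window 169 were (67.6%). The letters of the probes were not among the files used here. Whether each probe reads only the copy it is named for was therefore not tested.

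Gm10639 measured 7.48 on the untreated array, 15.35 with AR7, 7.73 with CA39 and 14.60 with CA77, a gap of 6.87 or 117-fold. Gm3776 measured 7.56, 15.22, 7.71 and 14.43 in the same order, a gap of 6.71. Gsta2 measured 6.58, 14.11, 6.58 and 13.45, and since the CA39 value was not well above background, its gap was at least 96.9-fold. In all 3 genes CA39 stayed within 0.26 log2 units of the untreated array while AR7 and CA77 lay 6.86 to 7.87 above it. A second probe of Gm10639, well above background with AR7 and CA77 alone, read 4.90, 10.16, 4.99 and 9.23. A pair of features without a symbol, named on the array for the mm9 intervals chr9:78107225-78118850 and chr9:78104935-78116974 (forward strand), behaved in the same manner. The first measured 7.64, 15.43, 7.82 and 14.72 (gap 6.90) and the second 7.01, 14.16, 7.19 and 13.46 (gap 6.26). Of the other probes of the first interval, 1 read 7.29, 14.92, 7.29 and 14.13, and the remaining 3 were well above background on 1 array each and were no members. No gene name was assigned to either interval.

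Gsta4, which acts on 4-hydroxynonenal and similar products of lipid peroxidation, was printed 10 times on each array. Its spots averaged 9.84 ± 0.10 (SD, 10 spots) on the untreated array, 14.53 ± 0.13 (10 spots) with AR7, 10.99 ± 0.09 (10 spots) with CA39 and 14.02 ± 0.09 (9 spots) with CA77. The lowest CA77 spot (13.89) lay above the highest CA39 spot (11.15), and the gap of the means was 3.03. Here CA39 was not at the untreated level but 1.15 above it. Gsta3 measured 7.04, 10.72, 6.98 and 10.03, a gap of 2.99 with CA39 at the untreated level. Thus all 5 alpha-class genes found on the array were members, all were higher, and AR7 lay above CA77 in 5 of 5. Gsta1 was not matched to a probe. The 5 genes kept their direction under each scaling tried, with a median side difference of 7.18 here, 7.06 under percentile scaling and 7.25 under all-probe scaling. Over all genes well above background on some array that median was -0.01.

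Mu, pi, theta, kappa and microsomal glutathione transferases had smaller gaps. Of 18 that could be higher, 11 were (61.1%, against 19.2% of all genes), and 2 of 17 were lower (11.8% against 20.2%). Gstk1, the mitochondrial and peroxisomal enzyme, measured 7.50, 8.48, 6.27 and 8.61, a gap of 0.97 counted from the untreated array, with CA39 not well above background. Gstm1 measured 12.87, 13.71, 12.70 and 13.63, a gap of 0.76 (0.75 on its second probe) that percentile scaling took to -0.02. The microsomal Mgst1 measured 13.64, 14.73, 12.75 and 14.37, a gap of 0.73 on this probe and 0.82 on the other. Gstp1 and Gstp2, which are near copies of each other, had gaps of 0.64 and 0.56, their other probes gave 0.69 and 0.71, and percentile scaling took that of Gstp1 to -0.05. The theta-class genes Gstt1 and Gstt3 had gaps of 0.22 and 0.24, with CA39 well below the untreated array (13.70 against 15.22, and 11.67 against 12.73). Gsto1, the dehydroascorbate-reducing omega enzyme, was no member, as CA39 (15.60) lay beside AR7 (15.55) and above CA77 (15.26). The 2 lower genes were Gstz1 (gap 0.19) and Mgst3 (gap 0.10). Under percentile scaling 2 of these genes were higher and 0 lower, and under all-probe scaling 12 and 2 were.

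Gstt4, a theta-class gene outside the list, lay among the widest gaps. It measured 10.01 on the untreated array, 11.85 with AR7, 7.13 with CA39 and 11.34 with CA77. Its gap of 1.34 was counted from the untreated array, and CA39 lay a further 2.87 below.

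**Figure D1:**
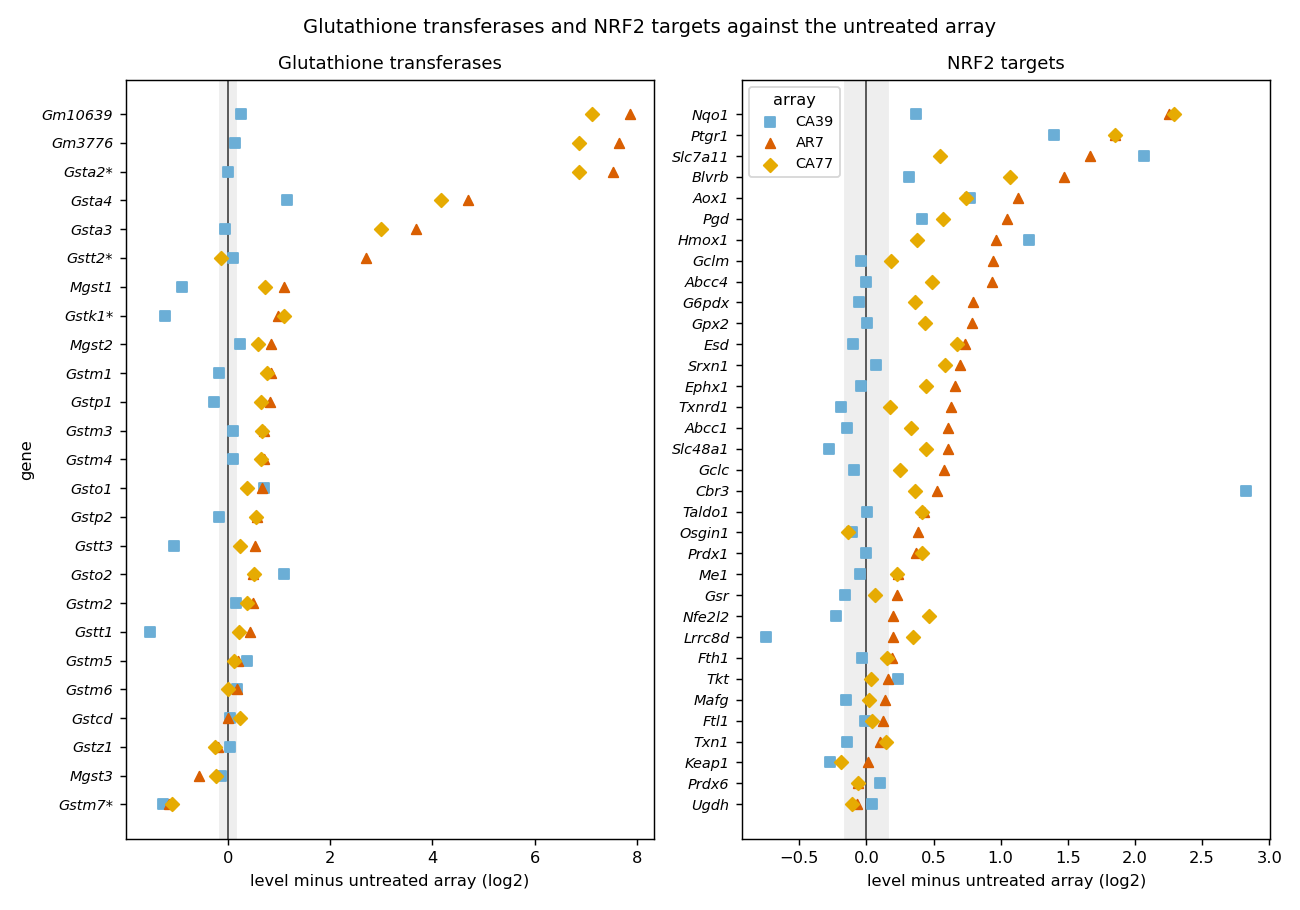
Level of each glutathione transferase (left) and NRF2 target (right) with CA39 (squares), AR7 (triangles) and CA77 (diamonds), minus its level on the untreated array, in log2 units, 1 array each. The grey band is the tolerance of 0.16 and a star marks genes not well above background on every array. AR7 and CA77 lie right of the band together with CA39 near 0 for Gm10639, Gm3776, Gsta2, Gsta3 and, at a smaller distance, for genes such as Srxn1, Esd and Taldo1, whereas Cbr3, Hmox1 and Slc7a11 have CA39 farthest to the right. Under percentile scaling 7 of the NRF2 targets were higher instead of 25.

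Among the NRF2 targets 25 of 34 genes were higher (73.5%, against 19.2% of all genes) and 2 were lower (5.88% against 20.2%). The lower ones were Ugdh (gap 0.07) and Prdx6 (0.06), and the other 3 probes of Prdx6 were not lower. The median side difference was 0.45, and 20 of the 25 gaps reached the tolerance. The counts were 7 higher and 0 lower under percentile scaling, with a median of 0.27, and 23 and 2 under all-probe scaling. CA39 lay within the tolerance of the untreated array in 16 of the 25, and AR7 lay farther out than CA77 in 19.

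Nqo1, the quinone reductase, measured 10.94 on the untreated array, 13.19 with AR7, 11.30 with CA39 and 13.23 with CA77, a gap of 1.89 or 3.70-fold. The biliverdin reductase Blvrb measured 13.99, 15.46, 14.31 and 15.06, a gap of 0.75. The S-formylglutathione hydrolase gene Esd had a gap of 0.68 (16.34, 17.07, 16.24 and 17.02), and its other probe gave 0.80. CA39 lay within the tolerance of the untreated array for Esd, and 0.37 and 0.31 above it for Nqo1 and Blvrb. Sulfiredoxin (Srxn1), which restores overoxidized peroxiredoxins, measured 14.38, 15.08, 14.46 and 14.97, a gap of 0.51. Percentile scaling took the gaps of Esd and Srxn1 to -0.17 each and left 1.41 for Nqo1 and 0.58 for Blvrb. Abcc4, an export pump for conjugates, had a gap of 0.49, the epoxide hydrolase gene Ephx1 0.44 (0.63 on its second probe) and the heme transporter gene Slc48a1 0.44.

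Both subunits of the enzyme that starts glutathione synthesis were members, with AR7 farther out than CA77. Gclm measured 11.35, 12.29, 11.31 and 11.53, and Gclc 13.90, 14.48, 13.81 and 14.15. Thioredoxin reductase (Txnrd1) followed this order with 15.25, 15.88, 15.06 and 15.43. In the pentose phosphate pathway, which makes NADPH, G6pdx (gap 0.36), Pgd (0.16) and Taldo1 (0.41) were higher and Tkt was no member. The ferritin genes Fth1 (0.16) and Ftl1 (0.04) and the thioredoxin gene Txn1 (0.10) had gaps under the tolerance, though a second probe of Ftl1 gave 0.43. Nfe2l2 itself measured 14.59, 14.79, 14.37 and 15.05, a gap of 0.20 that percentile scaling took to -0.67, and Keap1 was no member (12.92, 12.93, 12.65 and 12.73).

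A group of NRF2 targets did not separate the sides because CA39 was high as well. Heme oxygenase Hmox1 measured 13.64 on the untreated array, 14.61 with AR7, 14.86 with CA39 and 14.02 with CA77. Similarly, the cystine importer gene Slc7a11 measured 6.74, 8.40, 8.81 and 7.29, and the carbonyl reductase Cbr3 6.83, 7.36, 9.66 and 7.20. For all 3 the CA39 array was the highest. Ptgr1, the prostaglandin reductase, stayed a member with CA39 between the sides (6.06, 7.91, 7.46 and 7.91). Aox1 (8.32, 9.45, 9.09 and 9.06) missed the rule by 0.03.

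Aldehyde dehydrogenases and other carbonyl-removing enzymes were led by Aldh3a1, which oxidizes aromatic and lipid aldehydes. It measured 11.95, 15.95, 11.99 and 15.54, a gap of 3.55 or 11.7-fold, and its other probe gave a gap of 4.41. The CA39 level differed from the untreated level by 0.04. In this list 14 of 29 were higher (48.3%, against 19.2% of all genes) and 3 of 29 were lower (10.3% against 20.2%). Aldh2, the mitochondrial acetaldehyde-oxidizing enzyme, had a gap of 0.49, Adh7 of 0.47 and Aldh3b1 of 0.34, and percentile scaling took these to -0.37, -0.21 and -0.48. There 1 gene of the list was higher, and the median was 0.03 in place of 0.19. Aldh1l1, a folate enzyme, was the widest of the lower ones at 8.45, 7.80, 11.60 and 7.91.

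Aldh3a1 and Nqo1 are also known as targets of the aryl hydrocarbon receptor, which senses planar aromatic compounds. Of 7 genes of its list that could be higher, 5 were (71.4%, against 19.2% of all genes), and 0 were lower (0% against 20.2%). The count was 3 under percentile scaling and 4 under all-probe scaling. Ugt1a6b, a glucuronosyltransferase, measured 13.84, 15.01, 13.49 and 14.68, a gap of 0.84, and its second probe gave 0.92. The receptor gene Ahr measured 12.18, 12.98, 12.17 and 12.67, a gap of 0.49 that percentile scaling took to -0.05, and its dimmer probe was well above background on 1 array. Cyp1a1, the receptor's defining target, lay at 4.62 to 5.07 and was detected on none of the arrays, and Cyp1b1 was no member, with CA39 (14.02) and CA77 (13.83) both above AR7 (12.67) and untreated (12.68).

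The antioxidant response element core was searched in the same 250-base windows as TGACNNNGC on both strands. It was found in 10.2% of 32851 promoters, in 12.7% of 2740 promoters of the higher members and in 10.4% of 2775 promoters of the lower members. Of 36 promoters of the NRF2 list 9 held it (25%), and of 4 promoters of the alpha-class list that of Gsta3 did. Of 20 promoters of the sterol list described below 3 held it (15%). A match names letters and not a binding site, and windows without one say nothing about the factor. The windows of Gsta3 (plus strand, chr1:21240335-21240584), Txnrd1 (plus strand, chr10:82858956-82859205) and Prdx1 (plus strand, chr4:116685349-116685598) are shown, with the match in capitals, as higher genes of the lists above that hold these letters.
Gsta3: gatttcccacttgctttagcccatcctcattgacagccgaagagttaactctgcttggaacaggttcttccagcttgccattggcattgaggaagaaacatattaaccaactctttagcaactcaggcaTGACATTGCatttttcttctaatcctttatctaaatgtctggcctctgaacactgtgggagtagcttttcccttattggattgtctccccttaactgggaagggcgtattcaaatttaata
Txnrd1: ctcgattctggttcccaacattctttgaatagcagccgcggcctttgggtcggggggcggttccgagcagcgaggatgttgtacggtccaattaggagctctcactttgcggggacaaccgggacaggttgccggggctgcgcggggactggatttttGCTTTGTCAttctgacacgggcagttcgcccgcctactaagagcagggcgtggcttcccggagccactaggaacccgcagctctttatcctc
Prdx1: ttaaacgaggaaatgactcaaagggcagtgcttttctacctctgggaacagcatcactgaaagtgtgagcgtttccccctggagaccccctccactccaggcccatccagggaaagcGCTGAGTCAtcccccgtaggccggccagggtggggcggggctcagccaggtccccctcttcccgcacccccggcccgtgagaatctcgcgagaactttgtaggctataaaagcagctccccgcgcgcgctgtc
Prdx1, a peroxide-removing enzyme, measured 16.53, 16.91, 16.53 and 16.95, a gap of 0.37 on this probe and 0.28 on the other.

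CA39 took different places among the higher genes past 2-fold. Over the 34 genes, the detoxifying enzymes above included, CA39 lay within the tolerance of the untreated array in 7, beyond it on the side away from AR7 and CA77 in 18, and between the sides in 9. Measured values set these places also where CA39 was not well above background, as for Olfr1444 (5.63, between the sides). Such places are uncertain. AR7 lay farther out than CA77 in 27 of the 34. Slc39a4, a zinc importer, measured 9.99, 11.88, 8.39 and 11.40, a gap of 1.41. Gipc2, a PDZ-domain scaffold gene, measured 8.15, 9.66, 7.83 and 9.58, a gap of 1.43. Enpp2, which encodes autotaxin and makes lysophosphatidic acid, measured 13.88, 15.15, 10.77 and 15.01. Ier3, an early response gene, measured 13.82, 14.82, 12.14 and 15.17, with CA77 the highest. In Slc39a4, Enpp2 and Ier3 the untreated culture stood between CA39 and the other compounds. Slc11a1, an endosomal metal transporter, measured 8.39, 11.06, 6.54 and 10.32, and Bdkrb1, a kinin receptor, 6.91, 9.55, 6.69 and 8.56. For both, CA39 was not well above background, and the gaps, counted from the untreated array, were 3.79-fold and 3.14-fold. Pglyrp2, which cleaves bacterial cell wall peptides, had a gap of 2.71-fold and the olfactory receptor gene Olfr1444 of at least 2.45-fold. The second probe of Pglyrp2 gave a gap of 0.57 log2 units, under 2-fold. The muscle gene Myom2, the protease gene Mep1a, the transporter gene Slc16a9 and the inhibitor gene Serpina3n had gaps of 1.13, 1.04, 1.11 and 1.03 log2 units. The second probe of Slc16a9, not well above background with CA39, gave a gap of at least 0.38.

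Serpins of clade B, intracellular protease inhibitors that lie in a cluster of close copies, made up 5 of the named genes past 2-fold. Serpinb9d measured 9.42 on the untreated array, 11.58 with AR7, 7.88 with CA39 and 10.73 with CA77, a gap of 1.30. Serpinb9e (12.64, 14.44, 11.46 and 13.89), Serpinb9f (12.91, 14.67, 11.78 and 14.15) and Serpinb9g (12.96, 14.51, 11.71 and 14.03) followed with gaps of 1.25, 1.24 and 1.07. The order was CA39, untreated, CA77 and AR7 in all 4. Serpinb1b had a gap of 1.09 (7.79, 9.33, 6.06 and 8.88). Probes of such close copies can share signal, which was not tested. Serpinb9, Serpinb9c and Serpinb1a, looked up after these values were seen, had gaps of 0.54, 0.99 and 0.82. Serpinb9b and Serpinb1c, looked up with them, were not detected and were no members.

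**Figure D2:**
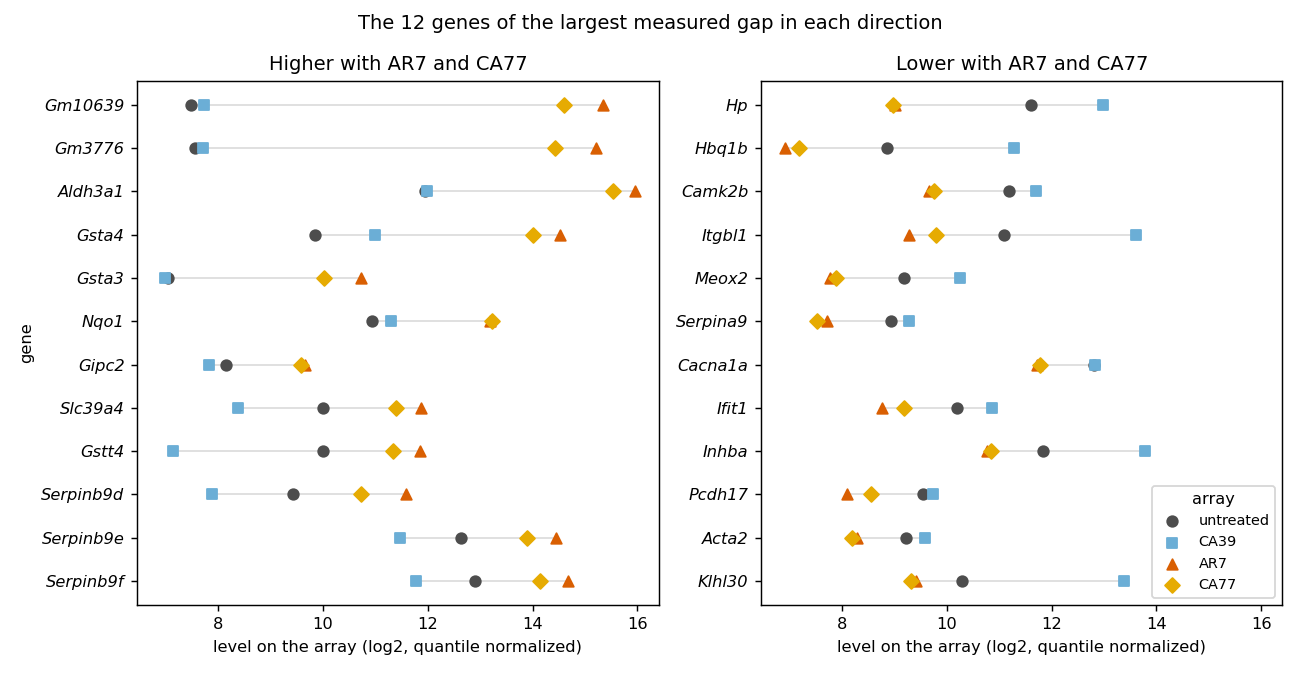
Level on each array (log2, quantile normalized) of the 12 named genes with the widest gap among genes well above background on all arrays, higher with AR7 and CA77 on the left and lower on the right, with 1 symbol per array. In Gm10639, Gm3776, Aldh3a1 and Gsta3 the untreated and CA39 symbols overlie each other, whereas in the Serpinb9 genes and in most lower genes the untreated array lies between CA39 and the AR7 and CA77 pair. Under percentile scaling all 24 genes kept their direction.

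Of the lower genes past 2-fold none had CA39 between the sides. CA39 lay beyond the untreated array, away from AR7 and CA77, in 10 of 12 and within the tolerance of it in 2. Haptoglobin (Hp), which binds free haemoglobin, had the widest gap. It measured 11.60 on the untreated array, 9.003 with AR7, 12.98 with CA39 and 8.98 with CA77, a gap of 2.60 or 6.05-fold. Hbq1b, a theta-globin gene, measured 8.86, 6.91, 11.28 and 7.18 (gap 1.68). Itgbl1, an integrin-beta-like secreted protein gene, measured 11.09, 9.29, 13.61 and 9.79 (gap 1.29), and its other probe, not well above background with AR7 or CA77, gave a gap of at least 0.21. The homeobox gene Meox2 measured 9.18, 7.76, 10.24 and 7.89 (gap 1.28). In these 4 genes AR7 and CA77 lay within 0.51 of each other while CA39 stood 1.07 to 2.52 above the untreated array.

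Camk2b, a subunit of a calcium-dependent kinase, measured 11.18, 9.67, 11.71 and 9.75 on its brighter probe (gap 1.43), and the second probe gave 0.28. The channel gene Cacna1a measured 12.81, 11.72, 12.83 and 11.78 (gap 1.03, and 1.02 on the second probe), with CA39 at the untreated level. Serpina9 (gap 1.23), Ifit1 (1.01), the protocadherin gene Pcdh17 (0.99) and Klhl30 (0.89) completed the widest measured gaps together with Inhba and Acta2, which are given with their lists. Erbb3, a receptor of the EGF family, measured 7.999, 6.27, 8.64 and 6.38, and its gap was at least 2.30-fold because the AR7 value was not well above background. The Riken transcript 9630013A20Rik had a gap of 2.03-fold, the GTPase gene Tgtp1 of at least 1.67-fold and Ms4a4b of at least 1.56-fold. A pair of lower features without a symbol, named for mm9 chr5:105032961-105037248 and chr19:12084892-12085332 (forward strand), had gaps of 1.14 and 1.09, and no other probe of these intervals was a member.

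Cholesterol synthesis was the list with the largest share of lower genes. Of 25 genes of sterol synthesis and uptake 23 were lower with AR7 and CA77 (92%, against 20.2% of all genes) and 0 were higher (0% against 19.2%). Of the 23 gaps 20 reached the tolerance. The median side difference was -0.83, against -0.01 over all genes. The count of lower genes was 22 under percentile scaling and 23 under all-probe scaling. The untreated array lay between the others in 22 of the 23, with CA39 above it by more than the tolerance. Over the 23 genes the median level relative to untreated was lower by 0.51 with AR7 and by 0.52 with CA77 and higher by 0.83 with CA39, so CA39 lay farther from untreated than AR7 and CA77 did. Each single gap was under 2-fold.

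Along the pathway, Hmgcs1, which makes HMG-CoA, measured 15.59 on the untreated array, 15.00 with AR7, 16.70 with CA39 and 15.07 with CA77, a gap of 0.52. The mevalonate kinases Mvk and Pmvk had gaps of 0.49 and 0.55, with 0.62 and 0.59 on their second probes. Mvd, the decarboxylase that follows them, had the widest gap of the list, 0.82 (13.33, 12.42, 14.24 and 12.51). In these enzymes the order of the arrays was the same, with AR7 and CA77 at the bottom and CA39 at the top. The later enzymes Lss (gap 0.64), Cyp51 (0.65) and Nsdhl (0.60, and 0.35 on a second probe) lay alike. Insig1, which holds SREBP in the endoplasmic reticulum and is itself a target, measured 10.68, 9.77, 11.84 and 9.94 (gap 0.74). Stard4, a sterol carrier, differed from the others in having CA39 (13.94) within the tolerance of untreated (13.84), with 13.10 for AR7 and 13.27 for CA77, although its dimmer probe had CA39 on top (11.14, 10.67, 11.60 and 10.68). Srebf2, which encodes SREBP2, was outside the rule (12.12, 12.0001, 12.40 and 12.16).

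The sterol regulatory element was searched as TCACNCCAC on both strands. It was found in 1.05% of all promoters, in 0.985% of those of the higher members and in 1.12% of those of the lower members. Of 20 promoters of the sterol list 1 held it, that of Hmgcs1 (plus strand, chr13:119690101-119690350), which is printed with the match in capitals.
Hmgcs1: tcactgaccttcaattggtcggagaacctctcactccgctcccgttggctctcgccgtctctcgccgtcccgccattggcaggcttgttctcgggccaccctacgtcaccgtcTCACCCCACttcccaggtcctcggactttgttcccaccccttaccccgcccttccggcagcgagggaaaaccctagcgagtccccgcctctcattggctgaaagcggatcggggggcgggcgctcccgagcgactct

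Fatty acid synthesis followed the same order with smaller gaps. Of 14 genes 9 were lower (64.3%, against 20.2% of all genes) and 1 (Acacb) was higher (7.14% against 19.2%), with a median side difference of -0.48. Elovl6, which lengthens palmitate, measured 13.68, 13.19, 14.57 and 12.93 (gap 0.49). Fatty acid synthase (Fasn) measured 11.01, 10.61, 11.98 and 10.30 (gap 0.40), and Acaca, the committing carboxylase, 14.67, 14.30, 15.37 and 14.12 (gap 0.37), with 0.51 and 0.48 on its other probes. CA39 was above the untreated array by more than the tolerance in 8 of the 9. Acly was no member, since CA77 (15.56) lay at the untreated level (15.54), while a dimmer probe gave a gap of 0.10.

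**Figure D3:**
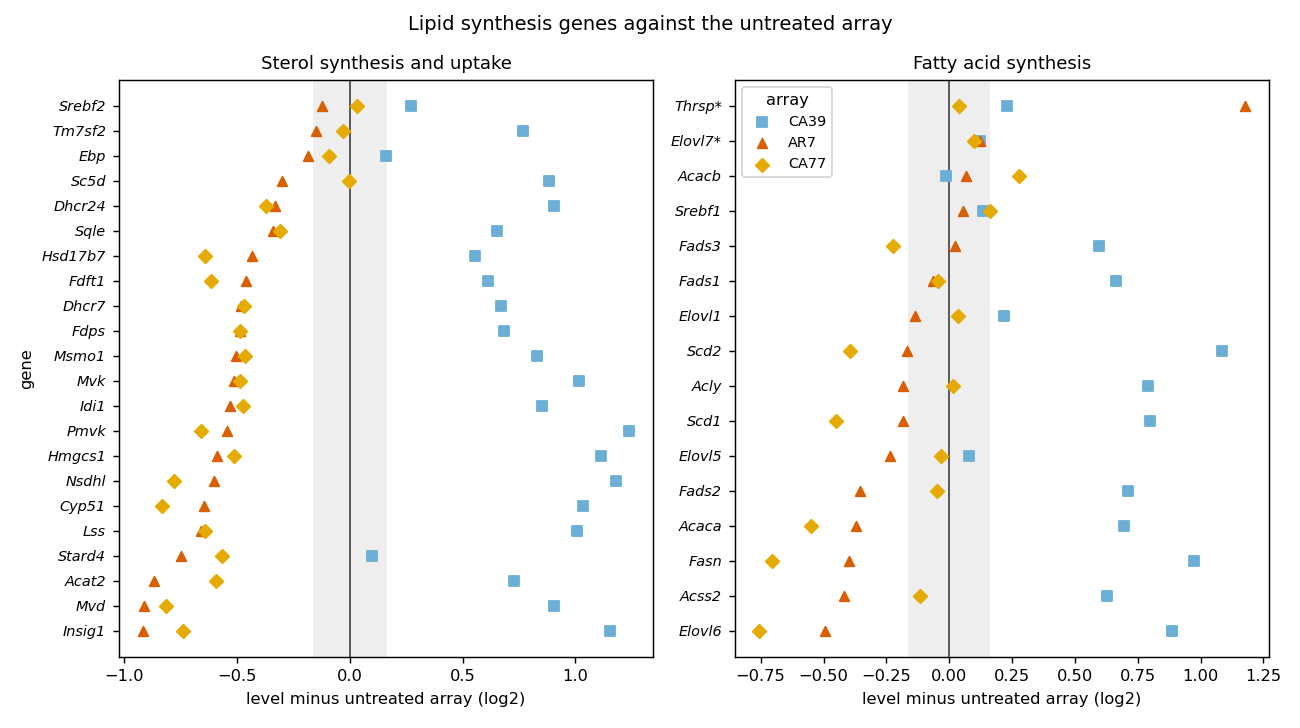
Level of genes of sterol synthesis and uptake (left) and of fatty acid synthesis (right) with CA39 (squares), AR7 (triangles) and CA77 (diamonds), minus its level on the untreated array, in log2 units, 1 array each. The grey band is the tolerance of 0.16 and a star marks genes not well above background on every array. Most sterol genes have AR7 and CA77 left of the band and CA39 right of it, while Stard4 has CA39 inside it. Under percentile scaling 22 of the sterol genes were lower instead of 23.

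Collagens and other matrix genes were lower with AR7 and CA77 in 25 of 38 cases (65.8%, against 20.2% of all genes). They were higher in 1 of 37 (2.7% against 19.2%). Of the 25 gaps 20 were past the tolerance. The median side difference was -0.75. The count of lower genes was 23 under percentile scaling and 24 under all-probe scaling. CA39 stood above the untreated array by more than the tolerance in 22 of the 25. Among fibrillar collagens, Col1a1 measured 15.59 on the untreated array, 14.55 with AR7, 16.65 with CA39 and 14.77 with CA77, a gap of 0.83. Col3a1 measured 8.51, 7.77, 9.02 and 7.88 (gap 0.63) and Col1a2 18.27, 17.89, 18.56 and 17.92 (gap 0.35). The basement membrane collagens Col4a1 and Col4a2 were no members, with all 4 arrays of Col4a1 between 13.79 and 14.00. The 3 chains of collagen VI had gaps of 0.44, 0.49 and 0.56.

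Proteoglycan and glycoprotein genes showed the widest spread because of CA39. Osteoglycin (Ogn) measured 9.67, 8.72, 11.88 and 8.84 (gap 0.83) and biglycan (Bgn) 11.91, 11.06, 14.23 and 11.12 (gap 0.79). Fibulin 5 (Fbln5), which is needed for elastic fibres, measured 11.17, 9.99, 13.34 and 10.40 (gap 0.77). Its other probe was undetected on all arrays. Matrix Gla protein (Mgp) measured 8.38, 7.68, 14.01 and 7.56 (gap 0.70) and thrombospondin 1 (Thbs1) 13.62, 12.85, 17.32 and 13.11 (gap 0.51). In Mgp and Thbs1 the distance of CA39 from untreated was several times the gap itself. Osteomodulin (Omd) had a gap of at least 0.72. Lox, which crosslinks collagen, measured 14.60, 14.08, 15.89 and 13.98 (gap 0.52). Decorin (Dcn), a small proteoglycan that binds collagen, was the 1 higher gene and ran the other way, with 17.15, 17.61, 11.46 and 17.46 (gap 0.31). Lumican (Lum), a related proteoglycan, was also low with CA39 (10.39) but was no member, since untreated (14.60) lay between AR7 (13.98) and CA77 (14.91). Postn, which was well above background with CA39 alone (14.18), was no member either.

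Matrix proteases and their inhibitors had 7 of 16 genes lower (43.8%, against 20.2% of all genes) and 4 of 18 higher (22.2% against 19.2%). The inhibitor genes Timp3 (8.87, 8.21, 13.22 and 8.36), Timp2 (17.12, 16.62, 17.04 and 16.67) and Timp1 (gap 0.25) were lower. A second probe of Timp2 had no gap, and percentile scaling took the gap of the first to -0.17. The gelatinase Mmp9 measured 8.14, 9.49, 6.09 and 8.99, a gap of 0.86. The median side difference of the list was -0.38 here and -0.09 under all-probe scaling. Under percentile scaling 8 genes of the list were lower and 1 higher.

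Chemokines and cytokines had 10 of 17 genes higher (58.8%, against 19.2% of all genes) and 4 of 18 lower (22.2% against 20.2%). In all 10 higher genes CA39 lay below the untreated array by more than the tolerance, by a median of 2.54. Cxcl1, a neutrophil attractant, measured 16.11, 16.69, 11.10 and 16.76 (gap 0.58), and Cxcl5 17.32, 17.84, 12.14 and 17.83 (gap 0.51). Ccl8 (13.49, 13.88, 11.06 and 13.81) and Ccl5 (12.24, 12.67, 9.59 and 12.54) had gaps of 0.32 and 0.30. Ccl2, the monocyte attractant, had untreated, AR7 and CA77 at 18.9 and CA39 at 15.9, a gap of 0.01. In these genes AR7 and CA77 stood a little above the untreated culture and CA39 far below it. Under percentile scaling 0 genes of the list were higher and the gaps of Cxcl1, Cxcl5 and Ccl8 were -0.32, -0.38 and -0.49, whereas under all-probe scaling 10 were higher. Ccl9 was lower (15.16, 14.60, 15.01 and 13.98).

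**Figure D4:**
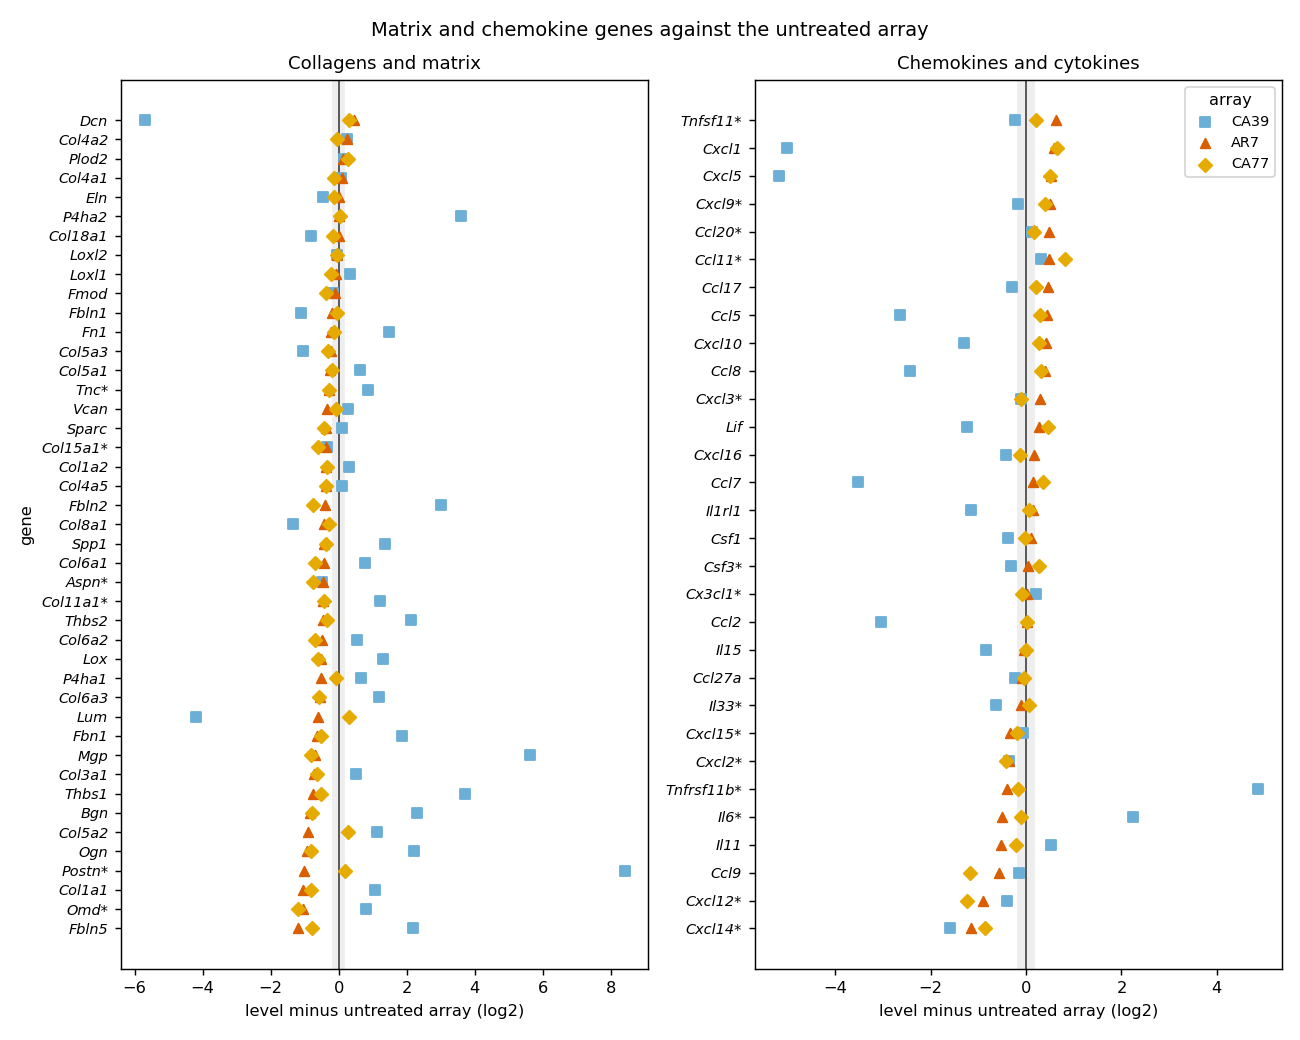
Level of each matrix gene (left) and each chemokine or cytokine gene (right) with CA39 (squares), AR7 (triangles) and CA77 (diamonds), minus its level on the untreated array, in log2 units, 1 array each. The grey band is the tolerance of 0.16 and a star marks genes not well above background on every array. AR7 and CA77 lie within 1.3 log2 units of untreated on both panels, while CA39 lies far to the right for Mgp and Thbs1 and far to the left for Dcn, Cxcl1 and Cxcl5. The chemokines right of 0 with AR7 and CA77 were no members under percentile scaling.

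Genes of TGF-β signalling and of the contractile state were lower more often than higher. Inhba, which encodes the activin A subunit, measured 11.83, 10.78, 13.78 and 10.84 (gap 0.99). Pmepa1, a feedback inhibitor of TGF-β signalling, measured 8.15, 7.44, 11.23 and 7.27 (gap 0.71, and 0.79 on its second probe). Skil, a repressor of SMAD proteins printed 10 times, had a gap of 0.36, with 0.25 on another probe. In this list 8 of 19 were lower (42.1%, against 20.2% of all genes) and 2 of 17 higher (11.8% against 19.2%). The higher ones were the BMP targets Id1 (gap 0.22) and Id2 (0.05). Under percentile scaling 5 genes of the list were lower and 0 higher. Smooth muscle actin (Acta2), printed 10 times on each array, averaged 9.22 ± 0.09 (SD, 10 spots) on the untreated array, 8.29 ± 0.16 (9 spots) with AR7, 9.59 ± 0.06 (9 spots) with CA39 and 8.19 ± 0.16 (9 spots) with CA77. The highest AR7 spot (8.52) lay below the lowest untreated spot (9.05), and the gap of the means was 0.93. Ccn2, a target of YAP and of TGF-β, measured 14.73, 13.54, 16.38 and 14.02 (gap 0.71). Of the contractile and YAP list 7 of 19 were lower (36.8%, against 20.2% of all genes) and 2 were higher (10.5% against 19.2%). The higher ones were Cnn1, and Ptpn14 with a gap of 0.22 that percentile scaling took to -0.48. Under that scaling 3 genes of this list were lower and 0 higher. Tropomyosin 1 (Tpm1, gap 0.22) lost its gap when all its probes were averaged (-0.09), in the grid rows beyond 160 (-0.30) and under percentile scaling (-0.27).

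Acute phase genes other than haptoglobin were split. Ceruloplasmin (Cp), a copper-carrying ferroxidase, was lower (14.43, 13.54, 15.10 and 13.49, gap 0.89, with 0.55 on its second probe). The serum amyloid genes Saa3 (11.57, 10.45, 11.10 and 10.53) and Saa1 (gap 0.18, or -0.26 under percentile scaling) were lower with CA39 between untreated and the other 2 arrays. The complement gene C3 was higher by 0.08 on each of 2 probes, with CA39 (12.64) far below untreated (16.72). Of this list 6 of 11 were lower (54.5%, against 20.2% of all genes) and 3 of 10 higher (30% against 19.2%). Under percentile scaling 5 were lower and 1 higher.

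Interferon-stimulated genes were lower in 12 of 31 cases (38.7%, against 20.2% of all genes) and higher in 8 of 29 (27.6% against 19.2%). Ifit1, an antiviral RNA-binding protein gene, measured 10.20, 8.77, 10.86 and 9.19 (gap 1.01), Ifit3 9.89, 8.99, 10.18 and 9.28 (gap 0.60) and Bst2, which tethers virions, 8.35, 7.78, 11.24 and 7.79 (gap 0.57). The ubiquitin-like Isg15 had a gap of 0.42 and 0.44 on its 2 probes. The 8 higher genes were Nlrc5 (gap 0.36, not shared by its dimmer probe), Tap2 (0.26), Psmb8 (0.19), H2-K1 (0.12), Psmb9 (0.10), Gbp3 (0.10), Ifi35 (0.08) and H2-D1 (0.07). Nlrc5 is known as an activator of class I genes such as H2-K1, and Tap2 as a peptide transporter. The counts were 8 lower and 0 higher under percentile scaling, and 11 and 8 under all-probe scaling.

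Amino acid and endoplasmic reticulum stress genes (ATF4 and its targets, chaperones and their regulators) were lower in 15 of 32 cases (46.9%, against 20.2% of all genes). Of these, 6 were past the tolerance. In the same list 1 gene (Cebpb) was higher (3.12% against 19.2%). Slc7a5, an importer of large neutral amino acids, measured 13.07, 12.64, 13.36 and 12.65 (gap 0.43), but its other probe had no gap (9.30, 9.05, 8.82 and 8.79). Xbp1 and Herpud1 had gaps of 0.26 each, and Nupr1 (13.07, 12.91, 15.12 and 12.70) of 0.16, with CA39 highest in all 3. Percentile scaling took the gap of Xbp1 to -0.003. Chac1 and Trib3, known ATF4 targets, were high with CA39 (15.41 and 16.05) and were no members.

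The CMA network differed little in size between the sides. Of its 18 genes 9 were higher (50%, against 19.2% of all genes) and 1 was lower (5.56% against 20.2%). The median side difference was 0.07 against -0.01 over all genes, and only the gap of Nfe2l2 (0.20) passed the tolerance. Lamp2 measured 15.08, 15.18, 15.10 and 15.26 on its brighter probe (gap 0.08) and 13.06, 13.29, 12.99 and 13.28 on another (gap 0.22). The probe names do not say whether the LAMP2A isoform is read. Hspa8, which encodes Hsc70, measured 17.87, 17.94, 17.82 and 17.88 (gap 0.01), and its other 2 probes had a gap of 0.02 and none. Nfatc1, a factor named among CMA regulators, measured 10.04, 10.16, 9.29 and 10.26 (gap 0.12, and 0.35 on another probe). Hsp90ab1, Dnajb1, Eef1a1, Rictor and Akt2 had gaps of 0.04, 0.03, 0.03, 0.02 and 0.14. Under percentile scaling, which moved the median of all genes to -0.11, the median was -0.10 with 0 genes higher and 1 lower. Under all-probe scaling, with all genes at 0.08, it was 0.09 with 6 higher and 1 lower, so the list lay near the median of all genes in both.

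Rara, which encodes RARα, was the lower gene (13.48, 13.27, 13.91 and 13.38, gap 0.10, with 0.03 on its second probe). Ncor1 was no member on its brighter probe (11.39, 11.49, 11.52 and 11.55). Rxra was higher by 0.13 on one probe and lower by 0.07 on the other. Of 17 retinoid genes that could be members 3 were higher (17.6%, against 19.2% of all genes) and 5 lower (29.4% against 20.2%). Under percentile scaling 0 were higher and 4 lower. The gap of Crabp1, a retinoic acid carrier, was the only one past the tolerance (8.62, 8.09, 11.49 and 8.18, gap 0.44). One probe of Rarb was well above background with CA77 alone (9.40), while its other probe (5.43, 5.49, 5.75 and 5.31) was so on no array. Cyp26a1, the main inducible target of retinoic acid, lay at 5.92 to 6.04.

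Lysosomal and macroautophagy genes had 12 of 54 higher (22.2%, against 19.2% of all genes) and 6 of 55 lower (10.9% against 20.2%), with a median side difference of 0.01. Cathepsin Z (Ctsz, gap 0.40), progranulin (Grn, 0.27), the cargo receptor gene Sqstm1 (0.17) and prosaposin (Psap, 0.17) were the widest of the higher genes, and Atg9a (0.30) and Uvrag (0.24) of the lower ones. Percentile scaling took the gaps of Ctsz and Grn to -0.47 and -0.50, and under it 0 genes of the list were higher and 2 lower.

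**Figure D5:**
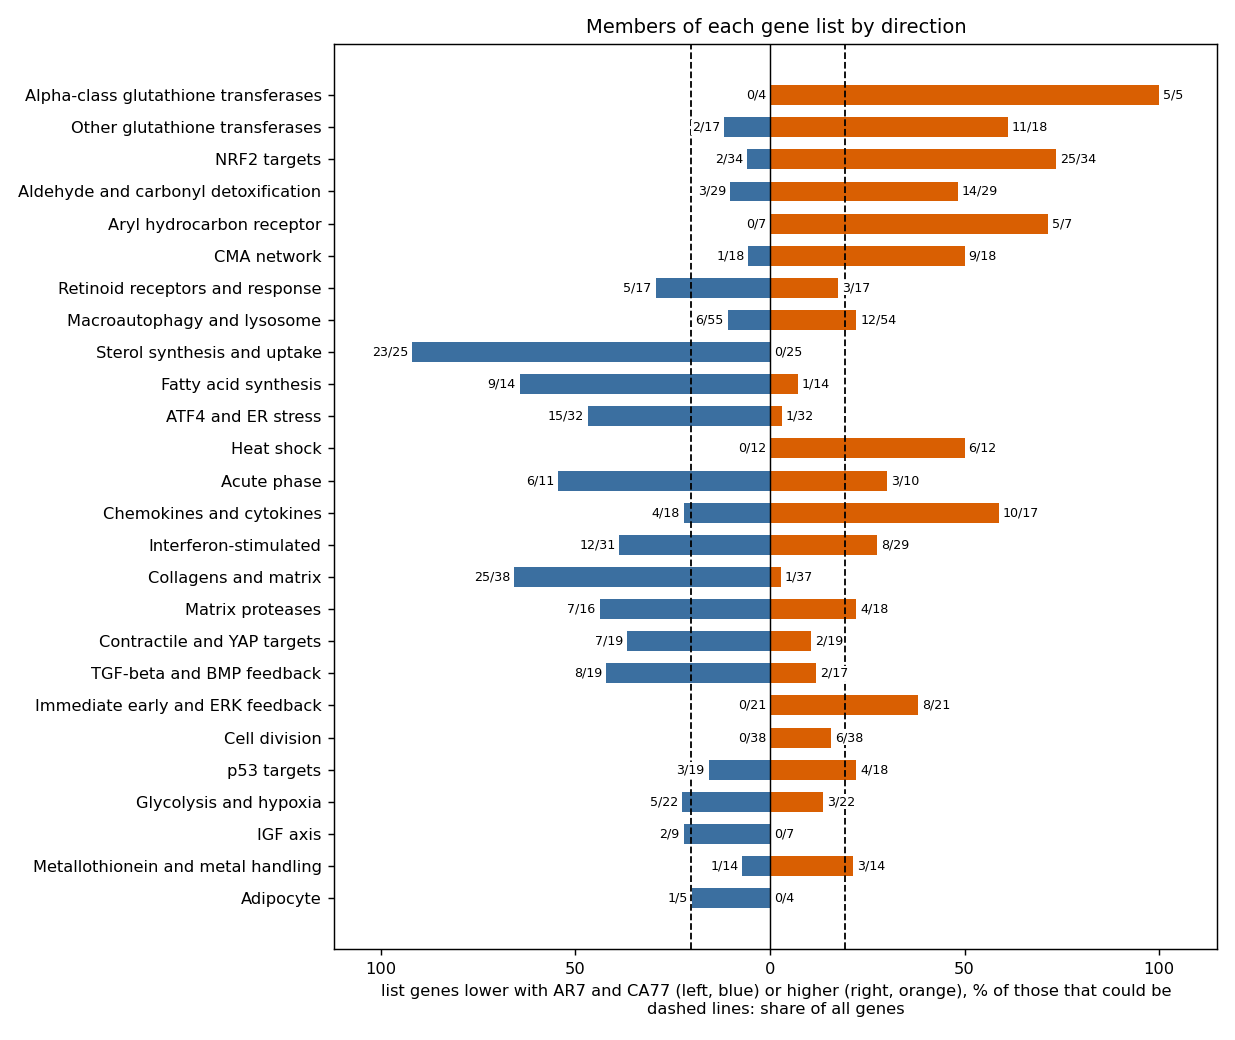
Share of the genes of each list that were higher (right, orange) or lower (left, blue) with AR7 and CA77, in % of the genes that could be, with the counts beside each bar and dashed lines at the share over all genes (19.2% and 20.2%). The alpha-class glutathione transferases (5 of 5), NRF2 targets (25 of 34) and sterol genes (23 of 25) have the longest bars, and under percentile scaling these counts were 5, 7 and 22. The cell division, heat shock and CMA lists had 0 higher genes under percentile scaling and 5, 5 and 6 under all-probe scaling.

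Of the remaining lists, heat shock genes were higher in 6 of 12 cases, immediate early and ERK feedback genes in 8 of 21 (Dusp4 with a gap of 0.39 and Fosl1 with 0.15 after Ier3) and cell division genes in 6 of 38, none of these lists having a lower member. These shares were 50%, 38.1% and 15.8%, against 19.2% of all genes, so that of the cell division list lay below the share over all genes. Under percentile scaling 0, 1 and 0 of them were higher, the gap of Dusp4 was -0.01, and the median of the cell division list was -0.01 in place of 0.17, beside -0.11 over all genes. Under all-probe scaling 5, 8 and 5 were higher. The p53, glycolysis and metal lists had 4 of 18, 3 of 22 and 3 of 14 genes higher, shares of 22.2%, 13.6% and 21.4% against 19.2% of all genes. Of the same lists 3 of 19, 5 of 22 and 1 of 14 were lower, 15.8%, 22.7% and 7.14% against 20.2%. Under percentile scaling 0, 0 and 0 genes of these lists were higher and 3, 3 and 2 lower. In the IGF list 0 of 7 were higher and 2 of 9 lower (22.2%, against 20.2% of all genes). In the adipocyte list 0 of 4 were higher and 1 of 5 lower (20%), this 1 gene having no bound above 0. Plk2 (gap 0.31) led the p53 targets and Tpi1 (lower, 0.19) the glycolytic genes, and under percentile scaling the gaps were -0.56 and -0.30.

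Probes of one gene were compared as a check within the array. Of 4709 genes with 2 probes well above background on all arrays, 868 were higher on the brighter probe, and the second probe was higher too in 44.1% of these, lay the other way in 68, and was higher in 17.8% of all 4709. Where the gap of the brighter probe reached the tolerance, the second was higher in 65.3% of 176, and where it reached 0.5, in 20 of 23. For the lower genes these values were 44.0% of 878, 64.2% of 212 and 16 of 20. Of the 878, the second probe lay the other way in 48, and it was lower in 20.3% of all 4709. Genes printed 10 times gave a view with less spot error. Of 244 such genes that could be higher 47 were, 13 of them past the tolerance and 1, Gsta4, past 2-fold. Of 239 that could be lower 52 were, 16 of them past the tolerance and none past 2-fold. Beside these counts, the shares over all genes were 19.2% higher and 20.2% lower, with 4.59% and 5.06% past the tolerance.

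AR7 and CA77 were given at the same dose for the same time, and since the members were chosen for both lying beyond the other arrays, their likeness over the members is no finding. Among higher genes past the tolerance AR7 lay farther out than CA77 in 58.5% of 990, and among the lower ones in 50.5% of 1083. The median absolute difference between the pair was 0.11 and 0.09 in these sets, and 0.49 and 0.16 in the members past 2-fold. CA39 lay within the tolerance of the untreated array in 45.2% of the 990 and 41.2% of the 1083, beyond it in the direction away from AR7 and CA77 in 48.2% and 51.6%, and between the sides in 6.67% and 7.20%. Among the higher genes the measured CA39 value was used here also where it was not well above background. With 1 array per compound, differences between compounds and differences between cultures cannot be told apart.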

How the data were processed

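Total RNA of 4 NIH-3T3 cultures was labelled with Cy3 and hybridised to 1-colour Agilent Mouse 8x60K arrays, 1 array per group. Per the file headers, the deposited intensity values are linear spot brightness read by Feature Extraction 10.7.3.1, with array names based on build mm9 and 62976 spots per array. The deposited series table holds the background-subtracted intensity of the same spots. The submitters' processing notes name oligo and RMA, and values of that kind were not used here.

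The median spot signal was corrected with the median local background by normexp (offset 0) in limma 3.58.1 (R 4.3.3). Outlier spots and control spots were left out, and the log2 values were quantile normalized over the 4 arrays. Spots of a probe were averaged, and the brightest probe stood for a gene name (36838 compared, 20895 of them symbols). A probe was well above background when more than 50% of its spots were marked so. Values of the lower side that were not were raised to the array's 1st percentile of detected signal, which gives a lower bound ("at least") where the raised value set the gap. Membership used the measured values, so 99 higher and 180 lower members whose bound was not above 0 still count. The tolerance was the median SD of 399 probes printed 10 times, multiplied by the square root of 2. Counts, medians and figures came from Python 3.11.15 (pandas 2.3.3, numpy 2.4.6, matplotlib 3.10.9), and the steps were tested on simulated data. Promoters came from the RefSeq table of GRCm38.p6, which held 2150 of the 2757 symbols of higher members and 2159 of the 2735 of lower members.

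The gene lists and the sides were chosen with earlier results of these data known. In each direction the text names the 12 symbols of widest measured gap, up to 5 of widest gap among genes not well above background on all arrays, the widest members of each list, all alpha-class glutathione transferases, CMA and retinoid members, and the genes nearest to a gap of 0. Other genes were chosen after their values were seen. With 1 array per group no test was made, and the number of arrays limits the precision. Alternatives changed the background offset, signal, scaling, detection filter, floor, probe rule, spot filter and array rows, and the all-probe scaling was chosen after seeing the data. A few genes of the sterol and retinoid lists count in the totals and are not reported here by name.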

Additional observations from a re-analysis of the deposited data

How the results depend on the processing

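No paired analysis was possible because each group had 1 array, and for the same reason no array could be left out. Over the alternatives 34 of 44 recomputed counts stayed within 1.5 times their value, 294 of 330 list medians and 1376 of 1603 gene gaps moved by less than the tolerance, and 1 median and 32 gaps that had reached the tolerance changed sign. Percentile scaling moved most. It gave 259 higher and 2082 lower members (241 and 1311 of them shared with quantile normalization) and 52 lower members past 2-fold. Its list medians were 0.44 for other glutathione transferases, 0.27 for NRF2 targets, 0.029 for aldehyde enzymes, -0.10 for CMA, -0.24 for retinoid genes, -0.17 for lysosome, -1.01 for sterol, -0.65 for fatty acid, -0.45 for ATF4, -0.063 for heat shock, -0.24 for contractile, 0.011 for early response, -0.013 for cell division, -0.27 for glycolysis, -0.11 for metal, -0.13 for adipocyte genes and -0.68 for fibroblast markers. The detected probes whose percentile it takes differ between arrays (38621 untreated, 28929 with CA39), and their 75th percentile ranged from 11.96 to 12.89. Gaps that changed sign there were Gstm1 -0.017, Gstp1 -0.053, Esd -0.17, Srxn1 -0.17, Aldh2 -0.37, Adh7 -0.21, Aldh3b1 -0.48, Ahr -0.046, Nfe2l2 -0.67, Ctsz -0.47, Grn -0.50, Xbp1 -0.003, Hspa1a -0.34, Hsph1 -0.69, Saa1 -0.26, Cxcl1 -0.32, Cxcl5 -0.38, Ccl8 -0.49, Timp2 -0.17, Ptpn14 -0.48, Tpm1 -0.27, Ltbp1 -0.21, Dusp4 -0.012, Etv4 -0.63, Cenpe -0.69, Plk2 -0.56, Tpi1 -0.30 and Vwf -0.023. All-probe scaling gave medians of -0.094 for matrix proteases, 0.18 for leukocyte and 0.34 for endothelial markers. The alpha-class median was 6.59 with a normexp offset of 50, 7.50 with the processed signal, 7.51 with the series table, 5.52 for genes detected on all arrays, 6.06 with the mean over probes and 5.52 in grid rows over 160. The aryl hydrocarbon receptor median was 0.57, 0.94 and 0.94 in the first 3 of these and 0.36 both without a detection filter and in grid rows over 160. Epithelial markers had -0.68 with the processed signal and -0.66 with the series table, where endothelial markers had 0.31. Chemokines had 0.83 among genes detected on all arrays, where 21 higher members passed 2-fold. Without a detection filter there were 6210 higher and 6918 lower members, 77 and 23 of them past 2-fold, and matrix proteases had -0.18. Grid rows over 160, which hold fewer genes, gave 2379 higher members, 17 of them past 2-fold, and gaps of -0.22 for Slc7a5 and -0.30 for Tpm1. The mean over probes gave -0.087 for Tpm1 and -0.061 for Irs1. The cause of the other shifts was not tested.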
